A study of Schmidtea mediterranea with 24 samples.

Results

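Early induced transcripts that fell again after 6 h are described here in the planarian *Schmidtea mediterranea*, as 100 of the 82669 transcripts in the deposited count table. They were chosen by their own levels in *control(RNAi)* libraries. Of 82478 transcripts known only by a SmedASXL number, 13156 had a group median of at least 5 CPM (counts scaled to library size) in at least 1 group. Of these, 612 were higher at 6 h post amputation (hpa) than in intact animals by at least 0.5 in the group median of log2(CPM + 0.5). The 100 with the largest fall after 6 hpa were taken, where the fall is the smaller of the differences to 12 and to 24 hpa. The values of the 12 *control(RNAi)* libraries therefore chose the members, and they are given as a description with no test. The 12 *yki(RNAi)* libraries entered the choice only through the level minimum, which counted all 8 groups, and tests were made within them. Through *yki(RNAi)* groups alone 3 members reached that minimum, SmedASXL_010173, SmedASXL_074125 and SmedASXL_078451, and the other 97 reached it in a *control(RNAi)* group.

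The 8 groups held 3 libraries each: *yki(RNAi)* intact animals and *yki(RNAi)* tail fragments at 6, 12 and 24 hpa, and the same 4 states after *control(RNAi)*. All animals were of the asexual strain CIW4 and were fed double-stranded RNA 3 times, either against *yki* or against *gfp* as the control. All were irradiated with 60 Gy 15 days after feeding, also the controls. Amputation was made 24 h after irradiation, and the intact animals were sampled at that time. Each library pooled 15 tails or more than 8 intact animals. Intact animals hold every body region and tails only one, and time after amputation and time after irradiation rise together in the tails, so these cannot be told apart. The libraries measure whole fragments, and fewer cells of a type cannot be told apart from less RNA per cell.

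Planarians regrow missing parts from stem cells, which irradiation at a high dose removes. Within hours of a wound, many tissues switch on a shared set of transcripts, among them stress genes and early transcription factors, and genes that set the identity of the new part follow. Early wound transcripts commonly rise fast and fall fast, so the time of the fall is as much a part of the response as the rise. Yorkie is the transcriptional co-activator at the end of the Hippo kinase cascade, which restrains tissue growth in flies and vertebrates, and RNAi lowers its transcript in the whole animal. Chaperones of the heat shock protein 70 family, which help proteins to fold and rise when folding fails, are among the members described below.

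Library totals ran between 11.02 and 23.6 M counts. The transcript of *yki* measured 12.4 to 19.8 CPM over the *yki(RNAi)* libraries, against 78.1 to 119.3 CPM over the *control(RNAi)* libraries. Replicate A of the intact animals stood apart: for 12 members it was at least 1.5 times above both other libraries in *yki(RNAi)* and in *control(RNAi)* alike, as it was for 0.418% of the 13156 transcripts. Of these 12, 8 held ranks within the first 12 of the choice. By the same measure, replicate A of *yki(RNAi)* tails at 24 hpa was below both others for 11 members and 1.9% of the 13156 transcripts, replicate C of *control(RNAi)* intact animals above both for 10 and 0.479%, and replicate C of *control(RNAi)* tails at 24 hpa above both for 6 and 1.36%. No member was at 0 in any library, and the lowest count was 4, of SmedASXL_079104.

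In *control(RNAi)* animals the rise at 6 hpa over intact animals had a median of 0.65 on the log2 scale, within a range of 0.50 to 2.82 set at its lower end by the choice. The fall to 12 hpa had a median of 0.55 and the fall to 24 hpa a median of 0.83. By group median 63 of 100 were below their level in intact animals at 24 hpa, near the 55.2% of all 13156 transcripts, and 26 at 12 hpa, against 52.9%. At 24 hpa 80 members were lower than at 12 hpa and 20 were higher. All 3 libraries at 6 hpa were above all 3 of intact animals for 73 members, against 17.8% of all, above those at 12 hpa for 90, against 20.4%, and above those at 24 hpa for 90, against 28.3%, counts that the choice on these libraries set in large part. At the edge of the choice, SmedASXL_005217 and SmedASXL_009939, at ranks 99 and 100, fell by 0.34 and 0.33, and SmedASXL_002889 and SmedASXL_018827, the next in order, by 0.33 and 0.33 as well, so no gap separates the members from what follows them.

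**Figure D1:**
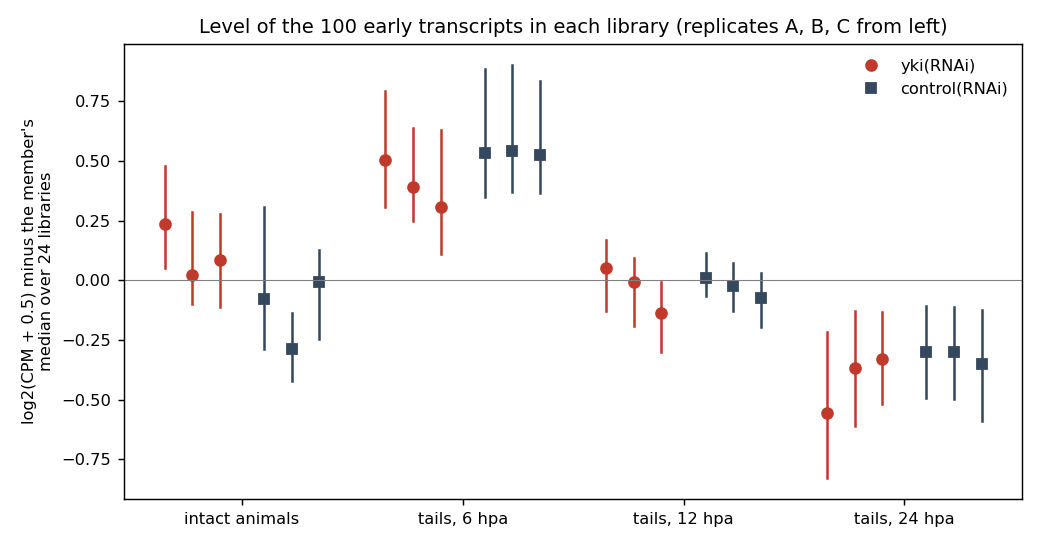
Level of the 100 members in each of the 24 libraries, as log2(CPM + 0.5) minus each member's median over all libraries, with *yki(RNAi)* as red circles left of *control(RNAi)* as blue squares. Points are medians over the members and bars the range between the quartiles. The medians at 6 hpa lie at 0.50, 0.39 and 0.31 in *yki(RNAi)* tails and at 0.53, 0.54 and 0.53 in *control(RNAi)* tails, and all 6 libraries at 24 hpa lie below 0, between -0.55 and -0.30.

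The member with the largest fall was SmedASXL_001986, which the tables used here pair with no name. In *yki(RNAi)* libraries it measured 45.4, 12.5 and 12.04 CPM in intact animals, 61.6, 57.7 and 39.95 at 6 hpa, 15.2, 13.5 and 6.52 at 12 hpa, then 8.46, 6.79 and 9.67 at 24 hpa. The *control(RNAi)* libraries held 49.4, 10.9 and 13.3 CPM in intact animals, 77.9, 92.6 and 54.2 at 6 hpa, 12.3, 9.63 and 10.8 at 12 hpa, then 18.6, 11.9 and 14.1 at 24 hpa. All 3 libraries at 6 hpa were above all those at 12 and 24 hpa in both, while replicate A of the intact animals, at 45.4 CPM in *yki(RNAi)* and 49.4 CPM in *control(RNAi)*, lay inside the 6 hpa range in *yki(RNAi)* and a little below it in *control(RNAi)*. Within *yki(RNAi)* its change was -2.24 (SE 0.22, adjusted p = 0.000208) at 12 hpa and -2.73 (SE 0.17, adjusted p = 1.14e-05) at 24 hpa, each against 6 hpa on the log2 scale. Its rise at 6 hpa over intact animals, 1.28 (SE 0.37, adjusted p = 0.0563), did not pass the test.

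SmedASXL_016637, at rank 3, measured 1102, 421 and 468 CPM in intact animals, 2986, 1333 and 1441 at 6 hpa, 1012, 989.6 and 692 at 12 hpa, then 243, 216 and 222 at 24 hpa in *yki(RNAi)* libraries. After *control(RNAi)* it measured 1393, 568 and 594 CPM in intact animals, 2877, 2307 and 1452 at 6 hpa, 842, 736 and 591 at 12 hpa, then 479, 299 and 296 at 24 hpa. It had a higher level at 6 hpa than at 24 hpa in every library of either RNAi, and its *yki(RNAi)* libraries at 24 hpa stood below all those of intact animals. Within *yki(RNAi)* it rose by 1.56 (SE 0.34, adjusted p = 0.0128) at 6 hpa, and fell by 3.14 (SE 0.27, adjusted p = 9.28e-05) at 24 hpa against 6 hpa. The rise lost its call without *yki(RNAi)* intact replicate B, at 1.32, or C, at 1.37, and by DESeq2, at 1.59, and the fall to 12 hpa, -1.17, lost it without replicate B or C at 12 hpa, at -1.23 and -1.01, and by DESeq2, at -1.19. SmedASXL_013802, SmedASXL_001942 and SmedASXL_002572, at ranks 2, 4 and 5, and SmedASXL_009507 and SmedASXL_005595, at ranks 8 and 10, also had the high replicate A of intact animals and fell after 6 hpa, though SmedASXL_013802 was higher at 24 than at 12 hpa in *control(RNAi)*. Their falls within *yki(RNAi)* were -2.15, -1.60, -1.42, -1.08 and -0.96 at 12 hpa and -2.11, -2.29, -2.11, -1.69 and -1.68 at 24 hpa, all past the test.

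**Figure D2:**
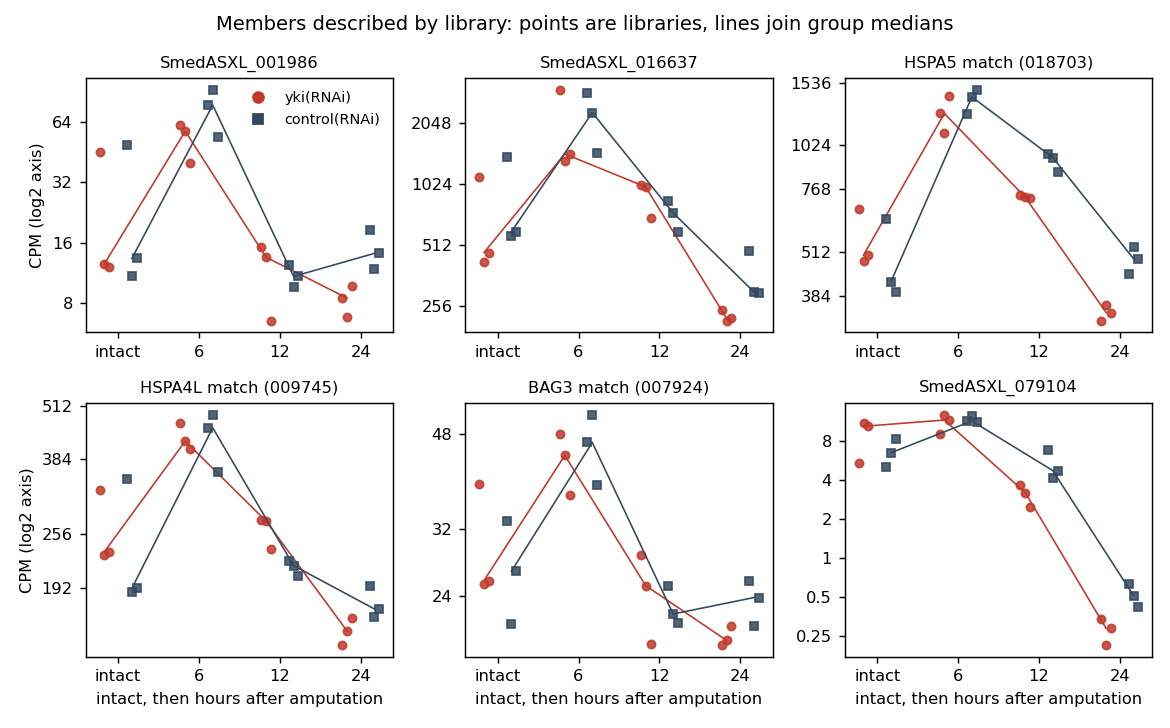
CPM on a log2 axis in each library for 6 members, with *yki(RNAi)* as red circles left of *control(RNAi)* as blue squares at each state, and lines through the group medians. Each panel peaks at 6 hpa, and the point of intact replicate A stands above the other 2 in all panels but that of SmedASXL_079104, whose 24 hpa libraries lie between 0.211 and 0.630 CPM.

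By the study's tables of closest matches in other species, 7 members carry a name, and 93 are known only by number. Of the named members, 3 belong to protein folding and stress. SmedASXL_018703, the match of HSPA5, the Hsp70 chaperone of the endoplasmic reticulum, measured 676, 481 and 500.5 CPM in intact animals, 1258, 1108 and 1414 at 6 hpa, 739, 729.6 and 727 at 12 hpa, then 327, 363 and 345 at 24 hpa in *yki(RNAi)* libraries. Its *control(RNAi)* levels were 633, 421 and 394 CPM in intact animals, 1257, 1402 and 1466 at 6 hpa, 969, 945 and 858 at 12 hpa, then 442, 528 and 489 at 24 hpa. Every library at 6 hpa was above every library of intact animals, of 12 hpa and of 24 hpa under the same RNAi. Within *yki(RNAi)* HSPA5 rose by 1.21 (SE 0.12, adjusted p = 2.5e-05) at 6 hpa against intact animals and fell by 0.85 (SE 0.08, adjusted p = 0.000118) at 12 hpa and by 1.93 (SE 0.09, adjusted p = 1.25e-06) at 24 hpa against 6 hpa.

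SmedASXL_009745, the match of HSPA4L, a member of the Hsp110 group of co-chaperones of Hsp70, measured 326, 229 and 233 CPM in intact animals, 466, 423 and 406 at 6 hpa, 277, 275 and 236 at 12 hpa, then 141, 152 and 163 at 24 hpa in *yki(RNAi)* libraries. Under *control(RNAi)* the values were 345, 187 and 191 CPM in intact animals, 455, 489 and 359 at 6 hpa, 222, 216 and 205 at 12 hpa, then 194, 164 and 171 at 24 hpa. Its intact replicate A was the highest of the intact libraries in both. Within *yki(RNAi)* its rise at 6 hpa, 0.74 (SE 0.11, adjusted p = 0.00093), was under the fold change of 2 that a call of tails against intact animals asks for, and its falls were -0.78 (SE 0.07, adjusted p = 0.00013) at 12 hpa and -1.57 (SE 0.08, adjusted p = 1.42e-06) at 24 hpa. SmedASXL_007924, the match of BAG3, which binds Hsp70 chaperones and guides damaged proteins to autophagy in mammals, measured 47.97, 43.7 and 37.00 CPM at 6 hpa and 19.4, 19.9 and 21.1 CPM at 24 hpa in *yki(RNAi)* tails. Its levels in *control(RNAi)* tails were 46.2, 52.04 and 38.6 CPM at 6 hpa and 25.5, 21.1 and 23.8 CPM at 24 hpa. BAG3 fell within *yki(RNAi)* by 0.88 at 12 hpa and 1.15 at 24 hpa, both past the test, and its rise of 0.56 at 6 hpa was not.

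Of the other named members, 3 are enzymes. SmedASXL_019387, the match of L3HYPDH, which dehydrates a form of hydroxyproline, measured 82.8, 51.4 and 52.6 CPM in intact animals, 85.99, 69.01 and 58.2 at 6 hpa, 39.3, 37.5 and 33.5 at 12 hpa, then 11.9, 18.6 and 19.3 at 24 hpa in *yki(RNAi)* libraries. The *control(RNAi)* values were 27.4, 16.7 and 21.2 CPM in intact animals, 39.3, 36.4 and 45.1 at 6 hpa, 29.7, 19.5 and 19.5 at 12 hpa, then 10.8, 7.44 and 10.1 at 24 hpa. It was higher in each *yki(RNAi)* group than in its *control(RNAi)* group, with no overlap of their libraries at any of the 4 states. Within *yki(RNAi)* its level at 6 hpa was not past the test against intact animals, at 0.22 (SE 0.17), and its changes against 6 hpa, both past the test, were -1.02 (SE 0.12, adjusted p = 0.000759) at 12 hpa and -2.15 (SE 0.18, adjusted p = 7.1e-05) at 24 hpa.

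SmedASXL_013566, the match of PANK4, a relative of the kinases that start coenzyme A synthesis, measured 26.9, 24.8 and 25.5 CPM in *yki(RNAi)* tails and 43.8, 34.1 and 45.2 CPM in *control(RNAi)* tails at 6 hpa. At 24 hpa it measured 13.6, 16.96 and 18.6 CPM in *yki(RNAi)* tails and 12.9, 11.98 and 15.02 CPM in *control(RNAi)* tails, so that the *yki(RNAi)* tails were lower at the earlier time and overlapped the *control(RNAi)* tails at the later one. Its falls within *yki(RNAi)* were -0.50 (SE 0.08, adjusted p = 0.00301) at 12 hpa and -0.71 (SE 0.11, adjusted p = 0.00136) at 24 hpa. SmedASXL_006173, the match of SULT1C3, a cytosolic sulfotransferase, had 5.16 to 10.2 CPM over all *yki(RNAi)* libraries and 1.61 to 6.97 CPM over all *control(RNAi)* libraries. Within *yki(RNAi)* it changed little up to 12 hpa, with 0.34 (SE 0.15) at 6 hpa against intact animals and -0.14 (SE 0.12) at 12 against 6 hpa, neither past the test, and it fell at 24 hpa, with -0.65 (SE 0.14, adjusted p = 0.00756). SmedASXL_013207, the match of SYTL2, a Rab effector of vesicle traffic in mammals, measured 3.20, 2.85 and 2.88 CPM in intact animals, 5.66, 6.66 and 6.84 at 6 hpa, 5.89, 5.35 and 3.38 at 12 hpa, then 3.59, 4.27 and 3.65 at 24 hpa in *yki(RNAi)* libraries. It rose by 1.13 (SE 0.14, adjusted p = 0.000181) at 6 hpa and fell at 24 hpa, with -0.79 (SE 0.13, adjusted p = 0.00245), and its change at 12 hpa, -0.45 (SE 0.17), was not past the test.

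Within *yki(RNAi)*, from libraries that did not set the rise or the fall of the choice, the members were asked whether they rise and fall as in *control(RNAi)*. At 6 hpa against intact animals, 9 of 100 members passed an adjusted p under 0.05 and a fold change of 2 upward, where 0.484% of all transcripts tested did. The median change was 0.30, against 0.00 for all transcripts tested, and 83 members were positive and 17 negative. The 3 libraries at 6 hpa were above all 3 of intact animals for 42 members, against 10.4% of all transcripts tested. The largest of these rises was that of SmedASXL_009407, 1.99 (SE 0.17, adjusted p = 7.15e-06), with 13.2, 10.8 and 10.3 CPM at 6 hpa against 2.42, 3.71 and 2.42 CPM in intact animals, and SmedASXL_004455, which follows SmedASXL_016637, rose by 1.28 (SE 0.17, adjusted p = 0.00025). Of the 9, 4 belong to the 12 members with a high intact replicate A, and without that library 13 members passed.

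The falls were shared by nearly all members. At 12 hpa against 6 hpa all 100 were negative, with a median of -0.53 against 0.00 for all transcripts tested, and 75 passed the test, with a smaller fold minimum for tails against tails, where 3.39% of all did. The libraries at 12 hpa were all below those at 6 hpa for 83 members, against 9.78% of all transcripts. At 24 hpa against 6 hpa all 100 were again negative, with a median of -0.80 against 0.02 for all, and 89 passed, where 9.61% of all did. Here the libraries did not overlap for 92 members, against 16.5%. Of the 97 members that reached the level minimum in a *control(RNAi)* group, 8 passed upward at 6 hpa, and 73 and 86 passed downward at 12 and 24 hpa against 6 hpa. Over all 100, both falls passed in 69 members, that at 12 hpa alone in 6, that at 24 hpa alone in 20 and neither in 5.

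The size of the fall followed the order of the choice. The 25 members of ranks 1 to 25 had medians of -1.08 at 12 hpa and -1.80 at 24 hpa within *yki(RNAi)*, with 24 and 25 past the test. The 25 of ranks 76 to 100 had medians of -0.34 and -0.60, with 14 and 21 past it. All 9 rises that passed lay within ranks 1 to 50. The largest fall at 24 hpa was that of SmedASXL_079104, at rank 13, which measured 5.39, 10.98 and 10.4 CPM in intact animals, 9.15, 12.9 and 11.7 at 6 hpa, 3.64, 3.21 and 2.46 at 12 hpa, then 0.336, 0.211 and 0.284 at 24 hpa in *yki(RNAi)* libraries. After *control(RNAi)* the levels were 5.08, 6.52 and 8.26 CPM in intact animals, 11.5, 12.5 and 11.3 at 6 hpa, 6.83, 4.16 and 4.75 at 12 hpa, then 0.630, 0.510 and 0.417 at 24 hpa. It was high in intact animals and at 6 hpa and near 0 at 24 hpa, and its change within *yki(RNAi)* at 24 hpa was -5.37 (SE 0.23, adjusted p = 4.31e-07) against 6 hpa and -5.05 (SE 0.37) against intact animals, with no rise past the test at 6 hpa, 0.30 (SE 0.20).

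At the other end, SmedASXL_009281 measured 4.60, 4.12 and 4.41 CPM at 6 hpa, 4.07, 5.15 and 3.53 CPM at 12 hpa and 5.04, 3.00 and 3.79 CPM at 24 hpa in *yki(RNAi)* tails, which overlapped. Its changes of -0.11 (SE 0.15) and -0.21 (SE 0.19) did not pass. SmedASXL_061487, with -0.08 (SE 0.12) and -0.41 (SE 0.18), did not pass at either time, and SmedASXL_005755, with -0.06 (SE 0.08), did not at 12 hpa. SmedASXL_066611, with -0.05 (SE 0.19), did not at 24 hpa.

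**Figure D3:**
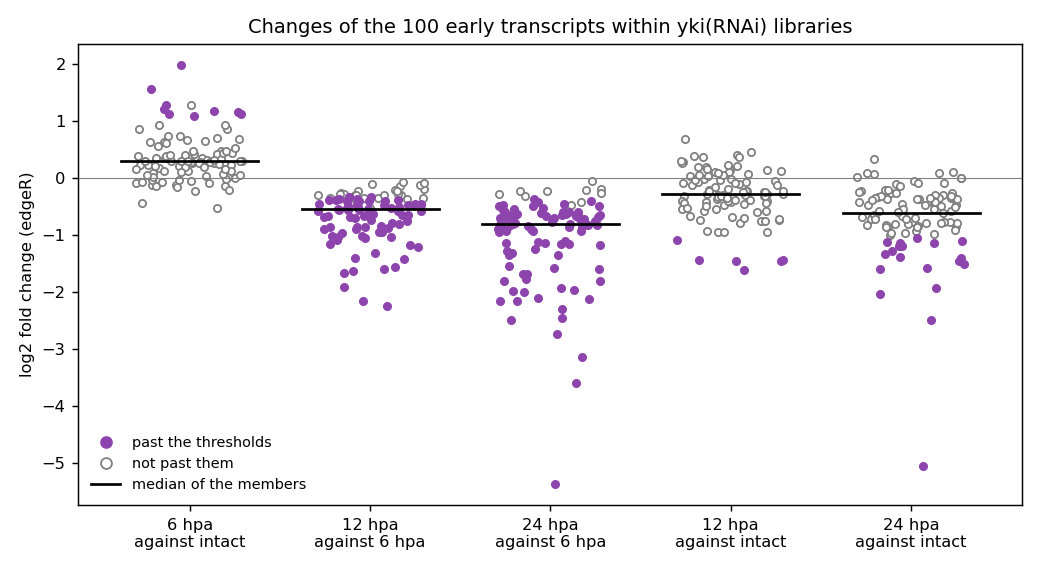
Fitted log2 fold changes of the 100 members in 5 comparisons within *yki(RNAi)* libraries, with members past the thresholds filled and black lines at the members' medians. The medians are 0.30 at 6 hpa against intact animals, -0.53 and -0.80 at 12 and 24 hpa against 6 hpa, and -0.28 and -0.60 at 12 and 24 hpa against intact animals.

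Against intact animals, no member was past the test upward at 12 hpa, where 3.23% of all transcripts were, and none at 24 hpa, where 6.18% were, in edgeR or in DESeq2. At an unadjusted p under 0.05, 7 members were higher at 12 hpa and 1 at 24 hpa. No share of all transcripts was taken at that limit, and nothing is read from these counts. Downward, 6 passed at 12 hpa against 2.95% of all, and 19 at 24 hpa against 3.47% of all. The medians over the members were -0.28 and -0.60, with 75 and 92 of 100 negative. The count at 12 hpa was 10 without *yki(RNAi)* intact replicate B. Of the 19 lower at 24 hpa, 7 belong to the members with a high intact replicate A, whose difference from intact animals rests in part on that library: SmedASXL_001986 was at -1.45 with it and at -0.61 without it, and SmedASXL_013802 at -1.40 and -0.82. Without it 14 members passed downward at 24 hpa.

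Markers of the epidermal lineage fell after 6 hpa as the members did, but in *yki(RNAi)* their sums at 6 hpa overlapped those of intact animals. Of 10 listed names, 3 transcripts were found, *prog-1* and *prog-2*, which mark early progenitors of the epidermis, and *vim-1*, which marks later stages. Their summed level in *yki(RNAi)* libraries was 793 to 991 CPM in intact animals, 777 to 921 at 6 hpa, 347 to 379 at 12 hpa and 139 to 220 at 24 hpa. In *control(RNAi)* libraries it was 693 to 979 CPM in intact animals, 1070 to 1114 at 6 hpa, 523 to 604 at 12 hpa and 297 to 335 at 24 hpa. The median of *prog-1* was 108 CPM in intact animals, 56.5 at 6 hpa and 0.474 at 24 hpa in *yki(RNAi)*, and 89.7, 69.2 and 0.736 CPM in *control(RNAi)*. By median, *prog-2* and *vim-1* were lower at 6 hpa than in intact animals in *yki(RNAi)* and higher in *control(RNAi)*. SmedASXL_079104 was also near 0 at 24 hpa. By median, SmedASXL_079104 was higher at 6 hpa than in intact animals in both RNAi, *prog-2* and *vim-1* in *control(RNAi)* alone and *prog-1* in neither. In *yki(RNAi)* the libraries of SmedASXL_079104 at 6 hpa overlapped those of intact animals. Of 12 stem cell markers 6 were found, with a sum of 400 to 416 CPM at 24 hpa, against 525 to 548 CPM at 6 hpa in *yki(RNAi)* tails. Most of that sum came from *piwi-2* and *piwi-3*, with medians of 312 and 204 CPM at 6 hpa and 234 and 168 CPM at 24 hpa. *piwi-1*, which defines stem cells, had group medians of 2.07 to 10.3 CPM over the 8 groups. Its medians in intact animals and at 6 and 24 hpa were 8.08, 4.41 and 2.07 CPM in *yki(RNAi)*, and 10.3, 4.29 and 2.75 CPM in *control(RNAi)*. *cintillo*, the only neuronal marker found, was at 0 in every tail library. It was also near 0 in intact animals, at 0.078 to 0.103 CPM in *yki(RNAi)* and 0.131 to 0.181 CPM in *control(RNAi)*, so nothing is read from it. No listed marker of gut, muscle, protonephridia or pharynx was matched. The part of the epidermal lineage in the members' fall was not tested.

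Of 97 wound-induced genes that the study took from earlier work on planarians, 9 are members. Of the 97, 41 were among the 612 transcripts known only by number that had the level minimum and the rise at 6 hpa. Genes of the list that carry a name in the count table could not be chosen, whatever their rise. Of the transcripts that the study itself chose as wound-induced on these libraries, 17 are members, which is no independent evidence. The members include the 3 of 4 listed genes of stress and protein folding that were tested. No early transcription factor, signalling gene or extracellular gene of the list is among them. Any of these with a name in the count table was barred from the start. Over the list, 9 of 94 tested passed upward at 6 hpa against intact animals within *yki(RNAi)*, and 14 and 31 of 93 passed downward at 12 and 24 hpa against 6 hpa, with medians of -0.07 and -0.23, members included. Upward, 8 and 12 of 93 passed at 12 and 24 hpa.

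Of the 9 early transcription factors of the list, 2 passed upward at 6 hpa within *yki(RNAi)*, *jun-1* and *Sp5*, by 1.05 and 1.08. *fos-1*, at 0.95, cAMP responsive element binding protein-1, at 0.78, and thyroid hormone receptor-1, at 0.45, had an adjusted p under 0.05 in edgeR and were under the fold change of 2. At 12 hpa none was lower past the test and 1 was higher, and 3 were lower at 24 hpa. *jun-1* stood at a median of 33.6 CPM at 6 hpa, 44.9 at 12 hpa and 34.2 at 24 hpa in *yki(RNAi)* tails, and *Sp5* at 62.9, 59.3 and 54.0 CPM. Among the signalling genes, *wntP-1*, a ligand of the posterior WNT pathway, rose by 1.68 at 6 hpa and fell by 1.42 at 24 hpa. *notum*, a secreted inhibitor of WNT, was higher at 12 hpa than at 6 hpa by 0.97. Both *wntP-1* and *notum* carry a name in the count table and so could not be members. *hadrian*, placed among the extracellular and adhesion genes, was higher at 24 hpa than at 6 hpa by 4.87, with medians of 501.8 and 24.5 CPM in *yki(RNAi)* tails. The counts of the list and of the members were not tested against each other.

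The next comparison asks how *yki(RNAi)* changes the members. As the *control(RNAi)* libraries also chose them, the choice itself leans *yki(RNAi)* minus *control(RNAi)* downward at 6 hpa and upward in intact animals and at 12 and 24 hpa, and the counts are a description. In intact animals 15 members were past the thresholds upward, against 1.68% of all transcripts tested, and 2 downward, against 1.98%. At 6 hpa 3 were past them upward, against 2.25%, and 22 downward, against 3.29%. At 12 hpa 7 were past them upward, against 9.57%, and 28 downward, against 9.95%. At 24 hpa, where 99 were tested, 2 were past them upward, against 1.35%, and 15 downward, against 2.33%. Of the 97 members that reached the level minimum in a *control(RNAi)* group, 14, 2, 4 and 1 were past the thresholds upward in intact animals and at 6, 12 and 24 hpa. The medians over the 100 members were 0.21 in intact animals, -0.17 at 6 hpa, -0.14 at 12 hpa and -0.19 at 24 hpa.

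These counts rested in part on single libraries. In intact animals the upward count was 5 without *control(RNAi)* replicate B or without *yki(RNAi)* replicate C, 6 without *yki(RNAi)* replicate B, 7 when *yki(RNAi)* replicate A was left out and 34 without *control(RNAi)* replicate C, and 9 without replicate A of both, a setting chosen after the values were seen. The downward count of 2 was 0 to 2. At 6 hpa the downward count was 12 without *yki(RNAi)* replicate B. At 12 hpa the upward count was 12 without *yki(RNAi)* replicate C. At 24 hpa the downward count was 8 without *yki(RNAi)* replicate B, and the upward count was 4 when *yki(RNAi)* replicate A was left out, and 1 when it was *yki(RNAi)* replicate B or *control(RNAi)* replicate A or B.

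**Figure D4:**
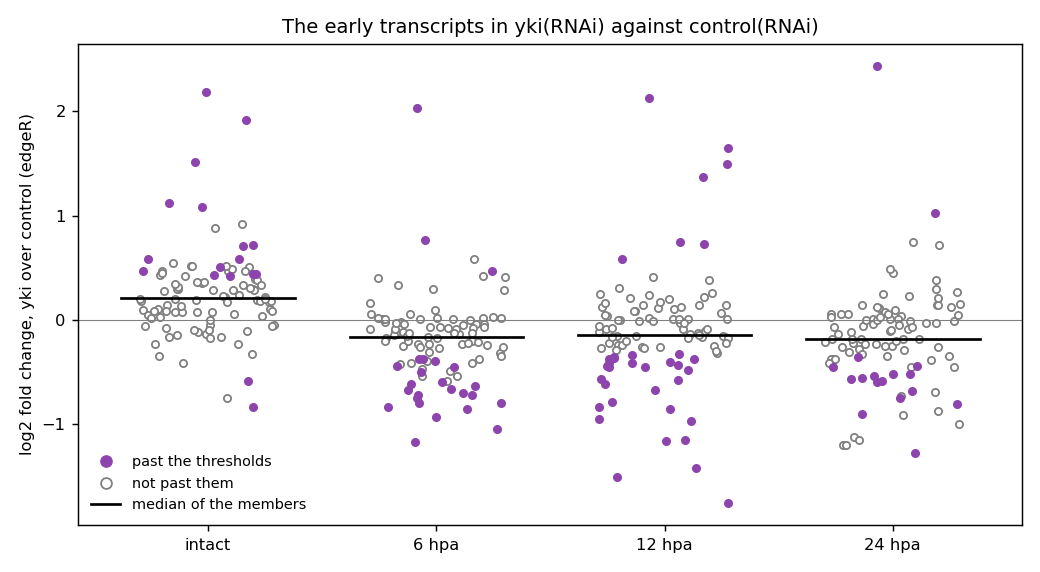
Fitted log2 fold changes of the members, *yki(RNAi)* over *control(RNAi)*, in intact animals and in tails at 6, 12 and 24 hpa, with members past the thresholds filled and black lines at the medians. The medians are 0.21, -0.17, -0.14 and -0.19, and a single member lies above 2 in every state, SmedASXL_010173, which reached the level minimum through *yki(RNAi)* groups alone.

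In tails, 7 members were past the thresholds upward at 1 or more times, against 9.74% of all transcripts tested, and 40 downward, against 10%. Of the 7, 3 reached the level minimum through *yki(RNAi)* groups alone, SmedASXL_010173, SmedASXL_074125 and SmedASXL_078451, so that their higher level in *yki(RNAi)* is in part a condition of being members. Without them 4 were upward, and the values of the 3 are given with nothing read from their direction. SmedASXL_010173, which is unnamed, measured 20.5, 7.68 and 9.21 CPM in intact animals, 16.2, 16.2 and 11.2 at 6 hpa, 8.40, 10.5 and 9.13 at 12 hpa, then 4.99, 8.43 and 7.35 at 24 hpa in *yki(RNAi)* libraries. The *control(RNAi)* libraries held 5.44, 1.47 and 1.79 CPM in intact animals, 2.85, 4.66 and 2.78 at 6 hpa, 1.82, 2.02 and 2.12 at 12 hpa, then 0.946, 1.78 and 0.927 at 24 hpa. No *yki(RNAi)* library overlapped a *control(RNAi)* library of the same state, and *yki(RNAi)* over *control(RNAi)* was 2.18 (SE 0.42) in intact animals, 2.04 (SE 0.20) at 6 hpa, 2.13 (SE 0.13) at 12 hpa and 2.44 (SE 0.28) at 24 hpa on the log2 scale. Within *yki(RNAi)* its intact replicate A was above all libraries at 6 hpa, its change at 6 hpa was 0.31 (SE 0.27), not past the test, and it fell after 6 hpa, with -0.70 (SE 0.14, adjusted p = 0.00992) at 12 hpa and -1.13 (SE 0.19, adjusted p = 0.00233) at 24 hpa, of which the first was not called in 1 fit of all 24 libraries, at -0.73.

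L3HYPDH (SmedASXL_019387) stood at 1.52 (SE 0.18) in intact animals, 0.77 (SE 0.14) at 6 hpa, 0.59 (SE 0.11) at 12 hpa and 0.74 (SE 0.20) at 24 hpa, the last not past the thresholds. SULT1C3 (SmedASXL_006173) stood at 1.92 (SE 0.19), 0.59 (SE 0.17), 1.49 (SE 0.14) and 1.03 (SE 0.24) in the same order. The difference at 6 hpa was not past the thresholds, and that at 24 hpa was past them by little, with 0.95 to 1.24 but no call when any library other than *control(RNAi)* replicate C was left out. SmedASXL_013042 had 74.8, 68.5 and 63.2 CPM in *yki(RNAi)* intact animals, against 29.03, 25.3 and 39.4 CPM in *control(RNAi)* intact animals. At 6 hpa it had 82.6, 75.4 and 72.5 CPM in *yki(RNAi)* tails, against 61.7, 47.7 and 51.6 CPM in *control(RNAi)* tails. This difference at 6 hpa was not past the thresholds without *yki(RNAi)* replicate A or B or *control(RNAi)* replicate B, at 0.36 to 0.48. Nor was it in 1 fit of all 24 libraries, at 0.45. SmedASXL_078451 and SmedASXL_074125, which reached the level minimum through *yki(RNAi)* groups alone, stood at 1.37 (SE 0.16) and 1.64 (SE 0.19) at 12 hpa. For SmedASXL_074125 this was 2.86, 3.16 and 3.00 CPM in *yki(RNAi)* tails, against 0.865, 1.04 and 0.805 CPM in *control(RNAi)* tails.

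Downward, SmedASXL_009407 and SmedASXL_009408 carry neighbouring numbers, and the tables used here do not say whether they belong to 1 gene. SmedASXL_009407 measured 2.42, 3.71 and 2.42 CPM in intact animals, 13.2, 10.8 and 10.3 at 6 hpa, 3.90, 3.65 and 4.11 at 12 hpa, then 0.728, 0.895 and 1.28 at 24 hpa in *yki(RNAi)* libraries. After *control(RNAi)* it measured 2.72, 3.30 and 3.28 CPM in intact animals, 22.3, 26.5 and 26.2 at 6 hpa, 10.6, 9.91 and 8.81 at 12 hpa, then 1.84, 1.78 and 1.67 at 24 hpa. The 2 RNAi overlapped in intact animals and were apart at all 3 times of tails, by -1.17 (SE 0.11), -1.42 (SE 0.11) and -0.91 (SE 0.23), the last not past the thresholds. SmedASXL_009408 was lower in every state, by -0.84 (SE 0.19), -0.80 (SE 0.12), -0.78 (SE 0.09) and -0.81 (SE 0.13), with 12.2, 9.34 and 11.98 CPM at 6 hpa in *yki(RNAi)* tails, against 18.3, 18.3 and 19.8 CPM in *control(RNAi)* tails. In intact animals its difference was not past the thresholds without *yki(RNAi)* replicate A, B or C or *control(RNAi)* replicate B, at -0.96 to -0.61.

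**Figure D5:**
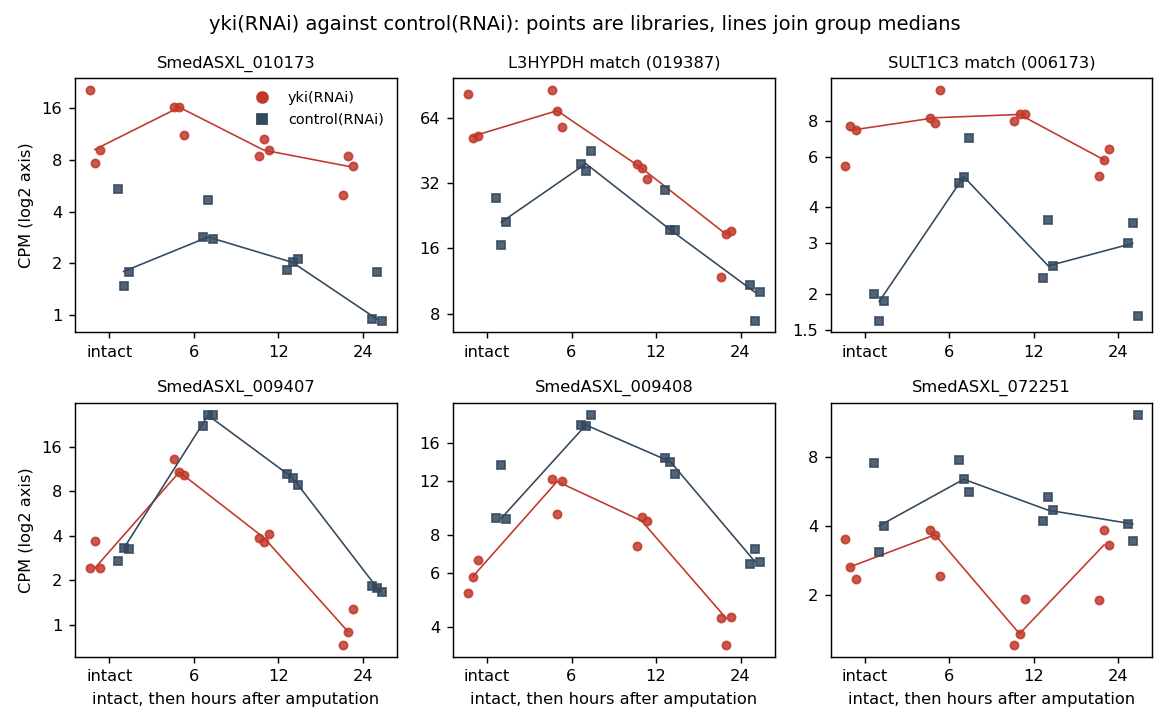
CPM on a log2 axis in each library for 6 members with differences between *yki(RNAi)*, red circles on the left, and *control(RNAi)*, blue squares on the right, at each state, with lines through the group medians. The L3HYPDH and SULT1C3 matches lie higher in *yki(RNAi)*, and SmedASXL_009407 and SmedASXL_009408 lie lower in *yki(RNAi)* tails. SmedASXL_010173 also lies higher in *yki(RNAi)*, but it reached the level minimum through *yki(RNAi)* groups alone, so nothing is read from its direction. SmedASXL_072251 is lowest in *yki(RNAi)* tails at 12 hpa, at 1.21 to 1.93 CPM.

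The 6 members with a high replicate C in *control(RNAi)* tails at 24 hpa, a group formed after the values were seen, also shared their pattern in *yki(RNAi)*. They are SmedASXL_074251, SmedASXL_074252, SmedASXL_078472, SmedASXL_015692, SmedASXL_072251 and SmedASXL_014051. All 6 were past the thresholds downward in *yki(RNAi)* tails at 6 and at 12 hpa and none at 24 hpa. The high replicate C that formed the group widens the spread at 24 hpa, so the lack of calls there does not show that the difference ended. At 24 hpa the 2 RNAi overlapped for SmedASXL_015692 and SmedASXL_072251 and not for the rest. SmedASXL_074252 had 15.7, 27.2 and 28.97 CPM in *yki(RNAi)* tails, against 33.2, 29.6 and 73.9 CPM in *control(RNAi)* tails. SmedASXL_072251 measured 3.52, 2.67 and 2.37 CPM in intact animals, 3.84, 3.68 and 2.42 at 6 hpa, 1.21, 1.36 and 1.93 at 12 hpa, then 1.91, 3.84 and 3.32 at 24 hpa in *yki(RNAi)* libraries. Its *control(RNAi)* levels were 7.53, 3.09 and 4.02 CPM in intact animals, 7.79, 6.42 and 5.65 at 6 hpa, 4.24, 5.36 and 4.70 at 12 hpa, then 4.10, 3.47 and 12.3 at 24 hpa. *yki(RNAi)* over *control(RNAi)* was -1.05 (SE 0.18) at 6 hpa and -1.76 (SE 0.18) at 12 hpa, and its lowest *yki(RNAi)* libraries were those at 12 hpa. Within *yki(RNAi)* all 6 were higher at 24 hpa than at 12 hpa by group median, by 0.54 to 1.04, where 84 of the 100 members were lower. This rests on replicates B and C: in all 6, replicate A at 24 hpa was at least 1.5 times below both others and near the 12 hpa level, as for SmedASXL_074252, with 15.7, 27.2 and 28.97 CPM at 24 hpa and 16.7, 14.9 and 15.2 CPM at 12 hpa. For SmedASXL_074251 the differences were -0.86 (SE 0.16) at 6 hpa, which was not past the thresholds without *yki(RNAi)* replicate B, at -0.77, and -1.51 (SE 0.17) at 12 hpa.

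The chaperones differed little between the RNAi at 6 hpa. HSPA5 (SmedASXL_018703) was at -0.17 (SE 0.11) at 6 hpa, not past the thresholds, and at -0.43 (SE 0.04) and -0.56 (SE 0.07) at 12 and 24 hpa, past them downward. HSPA4L (SmedASXL_009745) was at -0.05, 0.20 and -0.28, and BAG3 (SmedASXL_007924) at -0.13, 0.00 and -0.29, none past the thresholds. SmedASXL_001986 was past them downward at 24 hpa alone, at -0.91 (SE 0.19), but not without *yki(RNAi)* replicate B, at -0.78, or C, at -1.03, or *control(RNAi)* replicate A, at -0.71. SmedASXL_008803 had 4.15, 4.32 and 4.55 CPM at 24 hpa in *yki(RNAi)* tails, against 11.7, 8.62 and 9.78 CPM in *control(RNAi)* tails, a difference of -1.28 (SE 0.14). SmedASXL_076410 had 11.5, 7.95 and 8.10 CPM at 6 hpa in *yki(RNAi)* tails, against 19.98, 13.97 and 17.2 CPM in *control(RNAi)* tails, at -0.94 (SE 0.17), and was not past the thresholds without *yki(RNAi)* replicate B, at -0.85. In 1 fit of all 24 libraries, SmedASXL_001986 at 24 hpa, SmedASXL_019387 at 12 hpa, and SmedASXL_072251 and SmedASXL_074251 at 6 hpa were not past the thresholds either, at -0.91, 0.58, -1.07 and -0.88.

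Whether the fall itself differs between *yki(RNAi)* and *control(RNAi)* was asked with an interaction term. From 6 to 12 hpa no member was past the test in either direction, where 0.00328% of all transcripts tested were upward and 0.00656% downward. From 6 to 24 hpa no member was, and 0% of all transcripts were in either direction. At an unadjusted p under 0.05, 14 members had the smaller fall to 12 hpa in *yki(RNAi)* and 4 the larger. To 24 hpa, 5 had the smaller fall and 7 the larger. The share of all transcripts at that limit was not taken, so nothing is read from these counts. DESeq2 called 0 members to 12 hpa and 1 to 24 hpa. The medians over the members were 0.07 and 0.00 on the log2 scale. Leaving out *control(RNAi)* replicate B or C at 6 hpa gave 1 or 2 members to 12 hpa. A member that does not pass is not shown to fall alike, and the choice on *control(RNAi)* libraries leans the difference upward, as it makes the *control(RNAi)* fall large.

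The choice depends on the *control(RNAi)* libraries used. With each replicate letter left out of all 4 *control(RNAi)* groups in turn, 64, 55 and 65 of the 100 members were chosen again without A, B and C, and 16 to 18 of the first 20. In the *control(RNAi)* libraries of the letter that was left out, 6 hpa was above both 12 and 24 hpa for 92, 84 and 87 of the 100 chosen without it, against 35.2%, 34.8% and 40.9% of the 13156 transcripts. It was also above intact animals for 86, 83 and 76 of them, against 24.3%, 26.9% and 25.5%.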

How the data were processed

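RNA sequencing covered 24 libraries in biological triplicate. Base calling used bcl2fastq 1.8.3, and single-end reads lost 15 bases at the 3' end before Bowtie2 2.2.4 placed them on the SmedASXL transcriptome. The authors deposited raw counts of each transcript by sequencing lane, 2 to a library. The counting tool is not given in the sources used here, so values of near-identical transcripts are less certain. The deposited tables also hold the authors' DESeq2 fold changes and p-values, which were not used. Lanes were summed, except that 1 count column, from replicate A of *yki(RNAi)* intact animals on its second lane, was not used because of damaged rows. The row without a name, 6.31 to 7.49% of a library, was left out.

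The members and lists were chosen with earlier results of these data known. Each comparison was fitted on its own groups in edgeR 4.0.16 under R 4.3.3 (TMM, filterByExpr with min.count 10 and min.total.count 15, quasi-likelihood test, Benjamini-Hochberg over all transcripts), and a call needed an adjusted p under 0.05 and a fold minimum, which was 2 for tails against intact animals, 1.25 for other pairs and none for interactions. The SE was taken as the size of the log2 fold change divided by the root of the F statistic. In a test on simulated data the fit recovered all of the largest planted changes and part of the smaller ones. Alternatives were DESeq2 1.42.0, its size factors, no filter, a single fit of all 24 libraries, the replicate letter as a block and each library left out.

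Replicate letters were taken to pair libraries where the deviations from the group means of every pair correlated over 0.1. This held for *yki(RNAi)* 6 hpa against intact, at 0.15, 0.12 and 0.16, for *yki(RNAi)* 24 against 6 hpa, at 0.56, 0.60 and 0.31, and for *control(RNAi)* 24 against 6 hpa, at 0.61, 0.31 and 0.47, so that both arms of the change from 6 to 24 hpa were paired by this rule. In intact animals, *yki(RNAi)* against *control(RNAi)* missed this limit in replicate C alone, at 0.43, 0.28 and 0.08, and was not taken as paired. The labels do not say what a letter shares. Named members are those with a closest match, the first 10 ranks, ranks 99 and 100 with the next 2, the 3 largest rises and falls of each comparison and the 3 members nearest 0 among falls that were not called. Up to 4 genes were named from each list of other wound genes, and 3 transcription factors under the fold minimum were added after their values were seen.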

Additional observations from a re-analysis of the deposited data

How the results depend on the processing

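The counts of members within *yki(RNAi)* held within 1.5 times under DESeq2, its size factors, no filter on low counts, 1 fit of all 24 libraries and the replicate letter as a block. With any 1 library left out they were 6 to 13 upward at 6 hpa against intact animals, 60 to 82 downward at 12 against 6 hpa, 81 to 89 downward at 24 against 6 hpa, 4 to 10 and 14 to 24 downward at 12 and 24 hpa against intact animals, and 0 upward in both. For *yki(RNAi)* against *control(RNAi)* they were 5 to 34 upward and 0 to 2 downward in intact animals, 2 to 4 and 12 to 23 at 6 hpa, 7 to 12 and 24 to 34 at 12 hpa, and 1 to 4 and 8 to 19 at 24 hpa. For the interactions they were 0 to 2 upward and 0 downward to 12 hpa, and 0 both ways to 24 hpa. In intact animals the upward count of 15 became 30 with no filter, 26 with DESeq2, 29 in 1 fit of all 24 libraries and 30 with the replicate block, and 9 without replicate A of both groups, and the downward count of 2 became 4 with no filter and 4 with the block. At 24 hpa the downward count of 15 became 24 with no filter and the upward count of 2 became 1 with the block. With no filter, the interaction called 5 members upward and 1 downward to 12 hpa and 1 upward to 24 hpa, and DESeq2 called 1 upward to 24 hpa. The cause was not tested. Where the letters pair the libraries, the block gave 10 members at 6 hpa against intact animals, 90 at 24 against 6 hpa and 0 for the interaction to 24 hpa, and where they do not it gave 77 at 12 against 6 hpa.

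The choice of members kept 88 of 100 at a pseudocount of 1, 64 at 5, 64 with group means, 62 with TMM library sizes, 86 with a minimum of 10 CPM and 55 to 65 without a replicate letter. Of 123 calls of named members none reversed under any alternative, 5 were lost by DESeq2, 19 in 1 fit of all 24 libraries, 1 with the block, and 33 in at least 1 fit without a library, 77 losses in all. With 3 libraries a group, a small fall can go uncalled. As the choice used the *control(RNAi)* libraries, no value of theirs says how other animals would respond.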
